A study of Mus musculus with 2 samples.

Results

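Mir451a, Mir144 and Mir486 are the microRNA genes most closely tied to red blood cells, and their levels were measured here in embryonic mouse lung. They were taken by name: the 3 genes whose identifiers carry these symbols in GENCODE release M21, out of 1973 microRNA genes in the tables. All 3 were found, and all 3 passed the minimum of 10 counts in each library that 347 genes passed. The small RNA fraction (under 30 bases) of lungs from B6NCrl mouse embryos at 16.5 days gave 2 libraries, biological replicates 1 and 2 by their labels, with 6376715 gene counts in replicate 1 and 4123748 in replicate 2. No other group or treatment is named. Male and female embryos were pooled for each library, 41 of them for replicate 2 and an unstated number for replicate 1, so variation between single embryos was not measured. The labels do not say whether the lungs were cleared of blood.

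Red cells form in the fetal liver at this age and circulate through every organ, so a whole lung holds blood as well as lung tissue. Mir144 and Mir451a are made from a shared transcript that the erythroid factor GATA1 switches on, and mice without the cluster have red cells that are prone to oxidative damage. Mir451a is known for a maturation route without Dicer, in which Argonaute 2 cuts the hairpin and the mature RNA reaches into the loop. Mir486 lies in Ank1, the gene of the ankyrin that anchors the red cell skeleton, and is also made in heart and skeletal muscle.

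The mature RNAs annotated for the genes are listed below, and which of them the reads of a gene came from was not measured. They are from RefSeq on build GRCm38.p6, 5′ to 3′, with the seed (bases 2 to 8, the part that chiefly selects targets) in capitals.

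mmu-miR-451a: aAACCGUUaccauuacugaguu

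mmu-miR-144-5p: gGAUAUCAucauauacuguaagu

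mmu-miR-144-3p: uACAGUAUagaugauguacu

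Entries were found for 2 of the 3 genes, and Mir486 had none. No seed is shared among these RNAs, nor with any other mature mouse microRNA in the table. The seed of miR-144-3p differs only at its last base from that of miR-101a-3p, with which it shares bases 2 to 7. Mir101a, which is known for restraining the chromatin regulator Ezh2, had 74.3 CPM in replicate 1 and 74.4 CPM in replicate 2 (CPM are counts scaled to a total of 1e+06 over the microRNA genes of a library).

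The hairpins show how the genes differ in form. Here the mature RNAs are in capitals.

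Mir451a hairpin: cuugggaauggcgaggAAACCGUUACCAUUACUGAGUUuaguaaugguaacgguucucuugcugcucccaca

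Mir144 hairpin: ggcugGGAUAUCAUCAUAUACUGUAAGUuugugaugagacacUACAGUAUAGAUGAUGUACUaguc

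In the structure of lowest predicted energy, the Mir451a hairpin had 30 base pairs and a loop of 4 bases. Its mature RNA occupied positions 17 to 38 of 72, with 18 bases on the 5′ side of the stem and 4 in the loop. The Mir144 hairpin had 27 base pairs and a loop of 6 bases, and neither of its mature RNAs had a base in the loop. These are predictions from sequence, and the tables give counts per gene, so the arm or the length of the reads was not measured.

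The plus strand of chromosome 11 carries Mir144 (ENSMUSG00000065401.1) from 78073005 to 78073070 and Mir451a (ENSMUSG00000070065.1) from 78073170 to 78073241 (mm10). They are 99 bases apart, and the next annotated gene is Eral1 on the minus strand, 134 bases from Mir451a. Mir451b is annotated on the minus strand over the same bases as Mir451a. The plus strand of chromosome 8 carries Mir486 (ENSMUSG00000070084.3) from 23142555 to 23142682, in an intron of Ank1. On the minus strand it is overlapped by the microRNA gene Mir3107 (23142573 to 23142662) and lies within Gm15816. Mir451b and Mir3107 were not analysed here as genes of their own.

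All 3 genes were present at low to middling levels. Mir451a had 4765 counts (747 CPM, 95% interval 726 to 769) in replicate 1 and 1684 counts (408 CPM, 389 to 428) in replicate 2. Mir144 had 1775 counts (278 CPM, 266 to 292) in replicate 1 and 956 counts (232 CPM, 217 to 247) in replicate 2. Mir486 had 139 counts (21.8 CPM, 18.3 to 25.7) in replicate 1 and 82 counts (19.9 CPM, 15.8 to 24.7) in replicate 2. The order Mir451a, Mir144, Mir486 was the same in both libraries, and the values of no gene overlapped those of the next. Intervals are exact Clopper-Pearson intervals within a library and cover counting error only. Whether PCR copies of a molecule were counted as separate reads is not stated, and if they were, the intervals are too narrow.

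**Figure D1:**
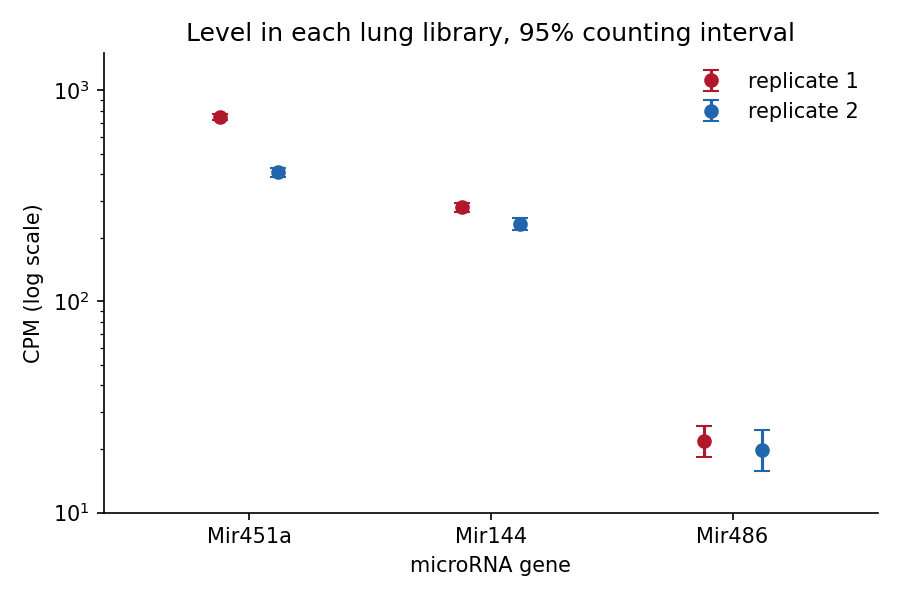
CPM (log scale) of Mir451a, Mir144 and Mir486 in replicate 1 (red) and replicate 2 (blue), where points are single libraries and bars exact 95% counting intervals. The intervals of replicate 1 lie above those of replicate 2 for Mir451a and Mir144 and overlap for Mir486.

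As means over the libraries the levels were 578 CPM ± 240 for Mir451a, 255 CPM ± 32.9 for Mir144 and 20.8 CPM ± 1.35 for Mir486 (SD, n = 2 each). By its mean, Mir451a took rank 120 of 1973 genes, Mir144 rank 155 and Mir486 rank 260. All 3 lay well below the leading microRNAs of the lung. Of the 347 detected genes, 65.4% lay below Mir451a, 55.3% below Mir144 and 25.1% below Mir486. The most abundant gene of the lung was 147-fold above Mir451a, 332-fold above Mir144 and 4063-fold above Mir486. Together the 3 genes held 0.105% of gene counts in replicate 1 and 0.0660% in replicate 2.

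**Figure D2:**
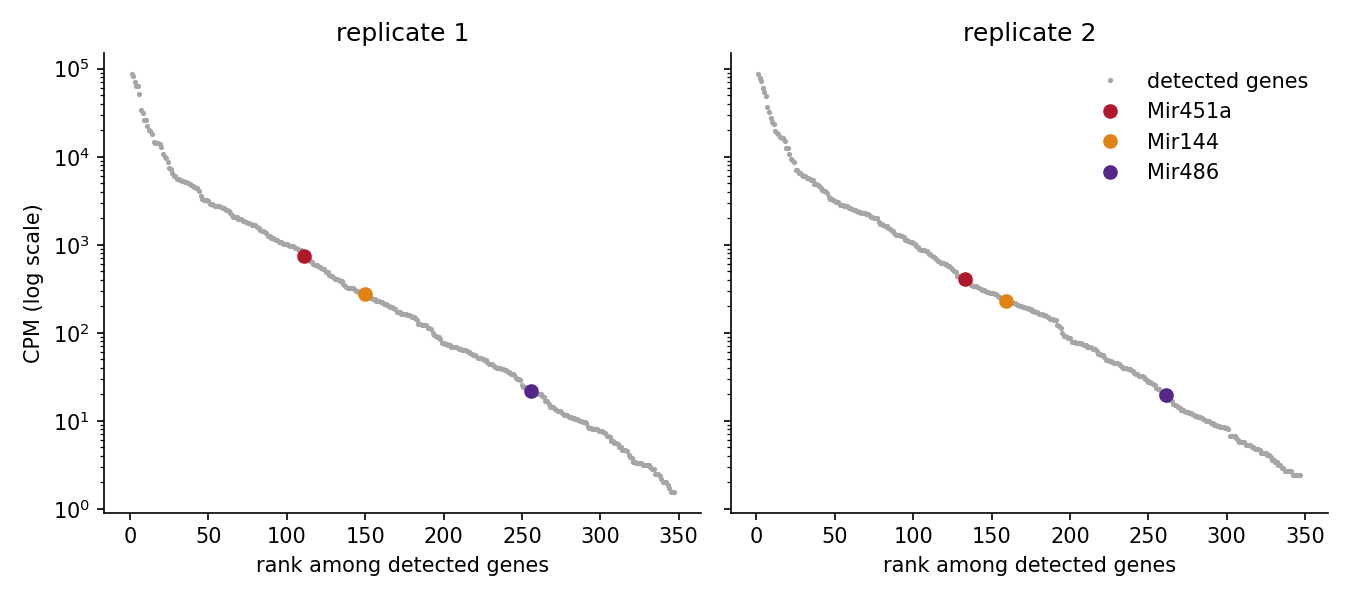
CPM (log scale) of the detected genes against their rank in replicate 1 (left) and replicate 2 (right), each grey point a gene. Mir451a (747 CPM in replicate 1, 408 CPM in replicate 2) and Mir144 sit in the middle of the range and Mir486 in its lower part.

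Genes next to the members in mean level place them among other microRNAs. Mir676 and Mir540 were just above Mir451a at 592 and 590 CPM, and Mir341 and Mir374b just below it at 573 and 572 CPM. Mir27a and Mir146, the inflammation-linked microRNA of leukocytes, were just above Mir144 at 267 and 265 CPM, and Mir376c and Gm24111 just below at 251 and 239 CPM. Around Mir486 lay Mir449b and Mir760 at 20.97 and 20.96 CPM, and Mir219a-1 and Mir153 at 20.1 and 19.5 CPM. With n = 2 the SDs of Mir451a and Mir144 are larger than their gaps to these neighbours, so their exact ranks are not resolved.

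Mir486 needs a caution that Mir144 and Mir451a do not. A run of 22 bases in the Mir486 hairpin occurs on both strands of the locus, so a read of that run matches the plus and the minus strand. Such a run was at least as long in 68 of 2202 annotated mouse microRNA hairpins (3.09%). The longest such run was 16 bases in Mir451a and 9 bases in Mir144. With microRNA hairpins that do not overlap them, the 3 genes shared at most 13 bases. Mir451b and Mir3107, which overlap Mir451a and Mir486, were left out of that comparison. Reads that match several loci have a line of their own in the tables, with 29.97% of reads in replicate 1 and 31.8% in replicate 2. Mir486 may therefore be counted too low, and how many of its reads are in that line was not tested.

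The strands of the counted reads were then compared. Mir451a had 0 of 4765 counts on the opposite strand in replicate 1 and 0 of 1684 in replicate 2, which allows shares of up to 0.0630% in replicate 1 and 0.178% in replicate 2. Mir144 had 0 of 1775 in replicate 1, which allows up to 0.169%, and 0 of 956 in replicate 2, which allows up to 0.314%. Every counted read of the cluster thus lay on the strand of Mir144 and Mir451a. The strand of Mir451b had none, which allows it up to 0.470 CPM in replicate 1 and 0.727 CPM in replicate 2. Mir486 had 11 of 139 counts on the opposite strand in replicate 1 (7.91%, 4.02 to 13.7) and 7 of 82 in replicate 2 (8.54%, 3.50 to 16.8). Opposite-strand counts were 0 in both libraries for 297 detected genes (85.6%), and their share was over 5% for 17 (4.90%), Mir486 among them.

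The next question was how the libraries differed. Mir451a was 1.83-fold higher in replicate 1 than in replicate 2 (95% interval 1.73 to 1.94, adjusted p = 4.76e-108). Mir144 was 1.20-fold higher (1.11 to 1.30, adjusted p = 1.71e-05). Mir486 had a fold of 1.10 (0.828 to 1.46, adjusted p = 0.648), so a difference was not detectable at its depth, although the interval does not reach the fold of Mir451a. The test is a two-sided exact conditional binomial test with Benjamini-Hochberg adjustment over the 347 detected genes.

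These p-values weigh the reads of the 2 libraries against counting error and hold no spread between libraries, so they compare the libraries and not conditions. By the same test 47.0% of detected genes were called in either direction, 16.4% were called higher in replicate 1 and 30.5% higher in replicate 2, so 2 of 3 members called is to be read against those shares. Only 1.15% of detected genes were called higher in replicate 1 with at least a 1.5-fold difference, and Mir451a was among them. In size, 0 of the other detected genes had a higher ratio of replicate 1 over replicate 2 than Mir451a. Of the 194 genes with a mean of 100 CPM or more, 4 differed by more than Mir451a in either direction, and 29 by more than Mir144. Of the same 194 genes, 8 had a higher ratio of replicate 1 over replicate 2 than Mir144, Mir451a among them. Each library is a pool made once, so embryo pool, blood content and library preparation cannot be told apart. Nor can fewer red cells and less RNA per cell be told apart in bulk tissue.

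**Figure D3:**
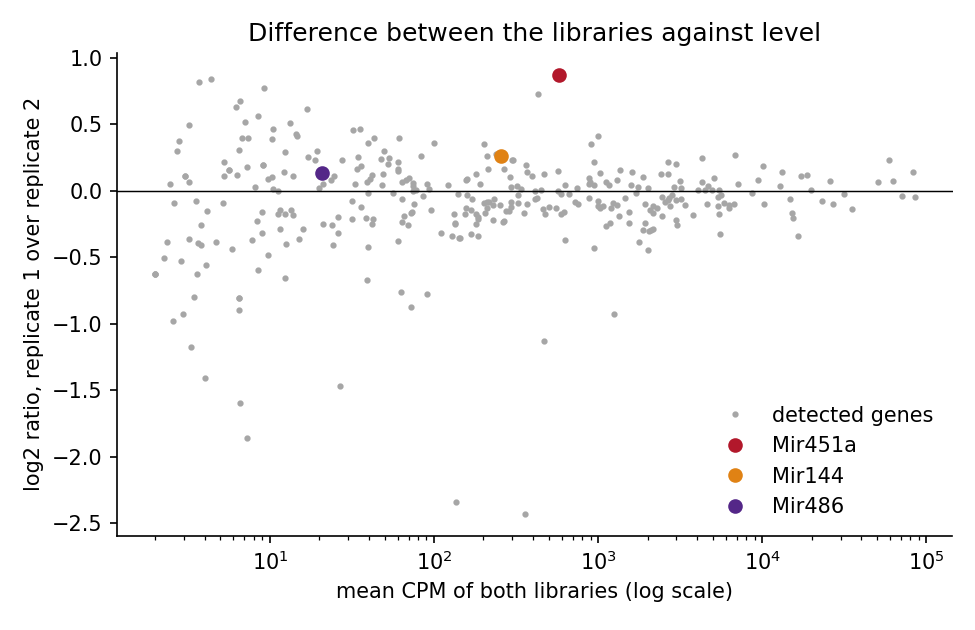
Log2 ratio of replicate 1 over replicate 2 against mean CPM (log scale), each grey point one of the 347 detected genes. Mir451a lies highest at 0.87, Mir144 is at 0.26 within the spread of genes of like level, and Mir486 is at 0.13.

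Since Mir144 and Mir451a are neighbours, their ratio within a library was compared too, which needs no scaling. Mir451a counts were 2.68-fold those of Mir144 in replicate 1 (2.54 to 2.84) and 1.76-fold in replicate 2 (1.63 to 1.91). The ratio was 1.52 times higher in replicate 1 than in replicate 2 (exact conditional interval 1.38 to 1.68). Per base of hairpin the ratio was 2.46 in replicate 1 and 1.61 in replicate 2, so the order does not depend on hairpin length.

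Mir144 counts were 12.8-fold those of Mir486 in replicate 1 (10.7 to 15.3) and 11.7-fold in replicate 2 (9.30 to 14.8). That ratio was 1.10 times higher in replicate 1, with an interval of 0.814 to 1.47 that includes no change. Mir451a counts were 34.3-fold those of Mir486 in replicate 1 (28.96 to 40.9) and 20.5-fold in replicate 2 (16.4 to 25.96). That ratio was 1.67 times higher in replicate 1 (1.25 to 2.22). Of the 3 ratios, both that contain Mir451a were higher in replicate 1 beyond counting error. Per base of hairpin, Mir451a was 60.9-fold above Mir486 in replicate 1 and 36.5-fold in replicate 2. Since Mir486 may be counted too low, the ratios over it may be too high.

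Other neighbouring microRNA genes give a scale for the pair. There were 50 pairs of detected genes on the same strand, adjacent in the order of detected genes and within 10 kb, with both at 100 CPM or more. The log2 ratios (replicate 1 over replicate 2) of Mir451a and Mir144 differed by 0.61, against a median of 0.12 over these pairs, and 0 pairs differed by more. Mir451a has the highest ratio of all detected genes, so the place of its pair is not a separate result. Many of the pairs also share a gene, so they are not independent. The next largest difference was that of Mir100 with Mirlet7a-2 at 0.58, followed by Mir15b with Mir16-2 at 0.35. Mirlet7a-2 and Mir16-2 have further gene copies, so their counts are uncertain. Among all 109 detected pairs, which include genes of few counts, 6 differed by more. They include Mir181a-2, which also has a further gene copy, with Mir181b-2, at 0.645 and mean levels of 64.0 and 997 CPM. The top place of Mir451a and Mir144 thus depends on the minimum of 100 CPM. In level the pair was closer than most: Mir451a was 2.27-fold above Mir144 by the means, against a median of 3.45-fold, and 32 of the 50 pairs were farther apart.

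**Figure D4:**
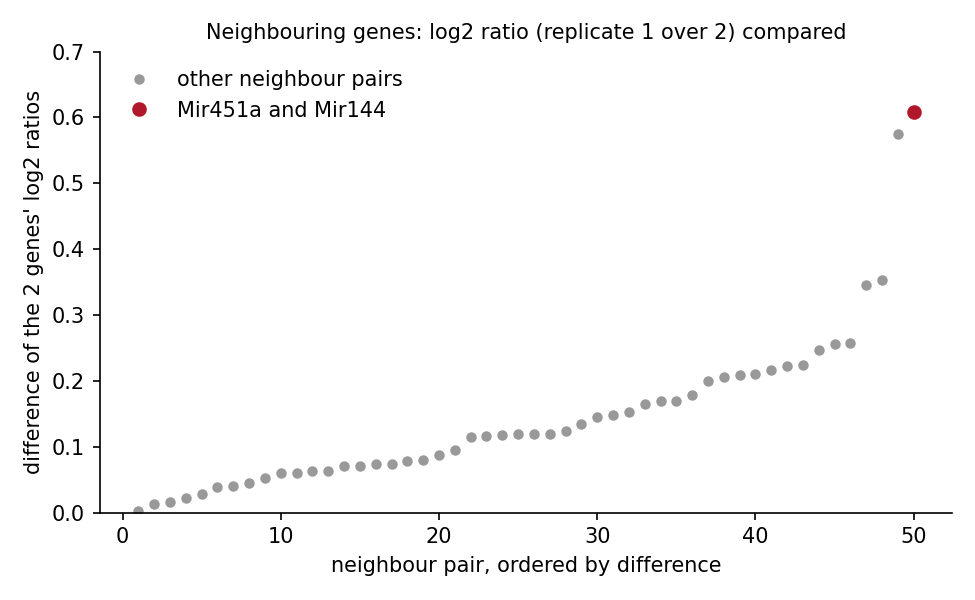
Absolute difference between the log2 ratios (replicate 1 over replicate 2) of neighbouring genes, for 50 pairs with both genes at 100 CPM or more, ordered from low to high. The pair of Mir451a and Mir144 (red) is highest at 0.61, beside a median of 0.12.

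Genes whose ratio between the libraries was nearest to that of each member were sought among those at 100 CPM or more. Over only 2 libraries this likeness is 1 number per gene and says nothing of shared control. Nearest to Mir451a was Mir208a, a microRNA of heart muscle, at 536 CPM in replicate 1 and 324 CPM in replicate 2 (1.65-fold), still 0.15 away in log2 ratio. Mir181b-2 (1.33-fold) and Mir7j (1.29-fold) came next, at 0.46 and 0.51 away. For Mir144 the nearest were Mir32 (1.20-fold), Mir20a (1.21-fold) and Mir15a (1.19-fold), all within 0.02. For Mir486 they were Mir342 (1.09-fold), Mir200a (1.10-fold) and Mir340 (1.09-fold).

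Other microRNAs studied in red cell formation had log2 ratios (replicate 1 over replicate 2) of -0.26 to 0.25. Of 15 listed symbols 13 had a row, and all 13 were detected. By the binomial test 4 were higher in replicate 1 (Mir126a, Mir15a, Mir96 and Mir16-2), 3 were higher in replicate 2 (Mir16-1, Mir223 and Mir155) and 6 were not called. That is 53.8% called, against 47.0% of all detected genes. Their median log2 ratio was -0.02, against -0.05 over all detected genes. With TMM scaling the count was 5 higher and 0 lower in replicate 1, and the median 0.03. By that scaling 78 of all 347 detected genes were higher and 75 lower in replicate 1. The most abundant of the list were Mir126a, Mir15a and Mir22, which are made in other cells too, Mir126a chiefly in endothelium. Mir15a had 4643 CPM in replicate 1 and 3910 CPM in replicate 2. Mir221 and Mir222, which restrain the growth receptor Kit and decline as red cells mature, were not called, with folds of 0.945 and 1.06.

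Markers of the other blood cells were called in both directions. Of 11 listed leukocyte and platelet genes 9 had a row and 8 were detected, of which 1 was higher in replicate 1 (Mir342), 5 were higher in replicate 2 (Mir181a-1, Mir142b, Mir223, Mir146 and Mir155) and 2 were not called. Over all detected genes 16.4% were higher in replicate 1 and 30.5% in replicate 2. The median log2 ratio of the list was -0.14, against -0.05 over all detected genes. With TMM or DESeq2 scaling, Mir223 and Mir155 were no longer called, which left 3 higher in replicate 2. Of all 347 detected genes, 75 were then higher in replicate 2 by TMM and 80 by DESeq2 scaling. Mir223, of myeloid cells and platelets, had 697 CPM in replicate 1 and 740 CPM in replicate 2. Mir342, the most abundant, had 2769 CPM in replicate 1 and 2531 CPM in replicate 2. Mir142b had 1149 CPM in replicate 1 and 1258 CPM in replicate 2, nearly all of it on the strand opposite to that gene, which is the strand of Mir142. Mir181a-1, Mir16-1 and Mir16-2 have near-identical copies elsewhere, so their counts are uncertain. In summed level these markers held 0.647% of gene counts in replicate 1 and 0.662% in replicate 2.

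Striated muscle also makes Mir486, and its markers were compared as well. Of 9 measured genes 6 were detected, of which 2 were higher in replicate 1 (Mir208a and Mir208b), 2 were higher in replicate 2 (Mir206 and Mir133b) and 2 were not called. That is 66.7% called, against 47.0% of all detected genes. Mir206 of skeletal muscle had 294 CPM in replicate 1 and 643 CPM in replicate 2. Mir133b had 3.29 CPM in replicate 1 and 9.94 CPM in replicate 2 (fold 0.331). Among called genes, the skeletal muscle markers Mir206 and Mir133b were thus lower in replicate 1 and the heart markers Mir208a and Mir208b higher, Mir208b by only 1.12-fold. Mir499 and Mir1b were not called, with folds of 1.06 and 0.705, so this split does not hold for the whole list. Mir208b had 225 CPM in replicate 1 and 200.3 CPM in replicate 2. Counts were 0 in both libraries for Mir1a-1, Mir133a-1 and Mir133a-2. Their mature RNAs are also made from a further gene copy, whose reads may be in the line of reads that match several loci, so these values do not show that the RNAs were absent. The list held 0.108% of gene counts in replicate 1 and 0.120% in replicate 2, and its part in the level of Mir486 was not tested.

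Liver, where red cells form at this age, has its own marker, Mir122 of hepatocytes. Mir122 had 111 CPM in replicate 1 and 601 CPM in replicate 2 (fold 0.186), opposite in direction to Mir451a. Of the 5 liver genes 4 were detected, and Mir148a, Mir192 and Mir194-2 were not called. That is 25.0% called, against 47.0% of all detected genes. Mir148a was called higher in replicate 1 with TMM or DESeq2 scaling. The median log2 ratio of the list was 0.05, and Mir122 alone carried its difference in summed level. The list held 0.0851% of gene counts in replicate 1 and 0.131% in replicate 2. Without Mir122, left out after its value was seen, it held 0.0740% in replicate 1 and 0.0711% in replicate 2. The part of the list in the red-cell values was not tested.

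Markers of the lung itself were present throughout. Epithelial genes (12 of 12 detected, led by Mir449a, Mir429 and Mir200c) held 5.94% of gene counts in replicate 1 and 6.58% in replicate 2. Endothelial genes (8 of 8 measured, led by Mir126a, Mir99a and Mir10a) held 14.7% in replicate 1 and 14.4% in replicate 2. Mir126a alone had 87277 CPM in replicate 1 and 79120 CPM in replicate 2. Whether the counts of the other genes of this list come from endothelium was not tested, so its share does not measure endothelium. Mesenchymal genes (9 of 10, led by Mir143, Mir140 and Mir214) held 8.15% in replicate 1 and 8.37% in replicate 2. Of the epithelial genes 2 were called higher in replicate 1 and 8 in replicate 2, with log2 ratios of -0.39 to 0.14 and a median of -0.08. Of the endothelial genes 1 was higher in replicate 1 and 4 in replicate 2, with ratios of -0.22 to 0.14 and a median of -0.08. Of the mesenchymal genes 2 were higher in replicate 1 and 3 in replicate 2, with ratios of -0.12 to 0.43 and a median of 0.10. Called in either direction were 83.3% of detected epithelial, 62.5% of endothelial and 55.6% of mesenchymal genes, against 47.0% of all detected genes. By direction, 16.4% of all detected genes were higher in replicate 1 and 30.5% in replicate 2, and their median log2 ratio was -0.05. TMM scaling gave 4 higher in replicate 1 and 6 in replicate 2 for the epithelial list. For the endothelial list it gave 1 higher in replicate 1 and 3 in replicate 2, and for the mesenchymal list 3 higher in replicate 1 and 2 in replicate 2. Among all 347 detected genes it gave 78 higher in replicate 1 and 75 in replicate 2. Mir451a had the highest ratio of all detected genes, so no gene of these lists could exceed it.

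**Figure D5:**
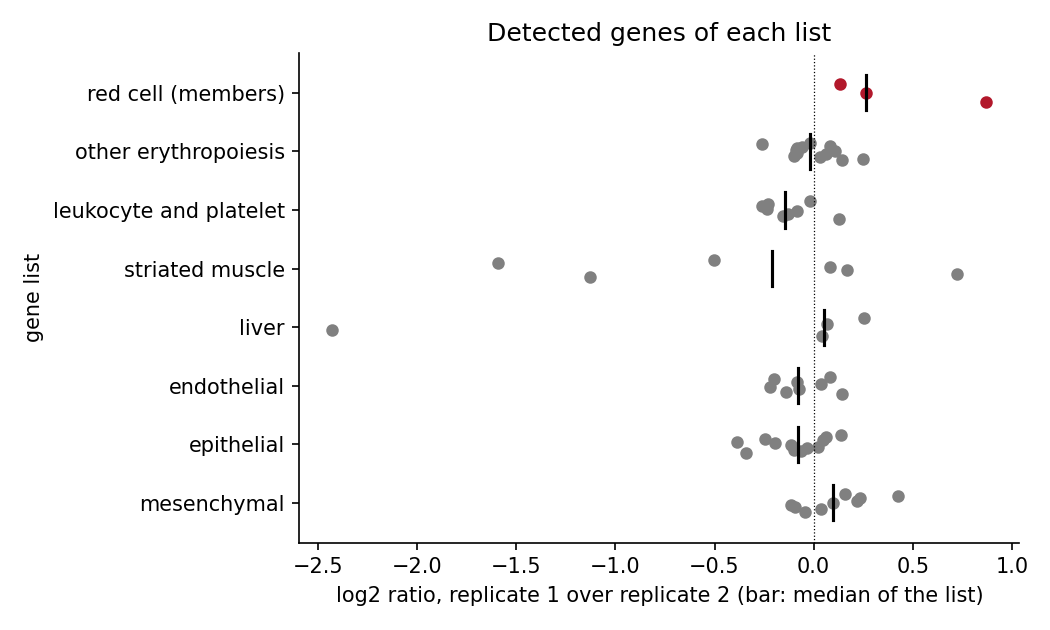
Log2 ratio of replicate 1 over replicate 2 for the detected genes of 8 lists, each point a gene and each bar the median of its list. All 3 red-cell genes lie above 0 (median 0.26), although Mir486 was not called, while Mir122 in the liver list lies lowest at -2.43.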

How the data were processed

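Small RNA libraries of 2 pools of embryonic lung were analysed. The authors deposited raw read counts per microRNA gene, made from alignments to mm10 with GENCODE M4, per the file headers. How reads were trimmed, aligned and counted is not given in the sources used here. Of the 3 count columns, the first adds up both strands in every one of the 1973 genes and was used. The summary lines (50.4% of reads in replicate 1 and 51.2% in replicate 2) stayed out of totals.

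Depth was 6376715 gene counts in replicate 1 and 4123748 in replicate 2. A count of 0 was taken to allow 3 counts. Symbols and coordinates (1-based) are from GENCODE M21, which matched 1894 of 1973 identifiers. Mir146a is named Mir146 there, by the synonyms in RefSeq. Every gene with at least 10 counts in each library was tested by an exact conditional binomial test given both totals. P-values were adjusted by Benjamini-Hochberg and called under 0.05. A comparison of 1 library with the other leaves no residual degrees of freedom, so p-values measure only the difference between these samples. TMM factors (edgeR 4.0.16) and size factors (DESeq2 1.42.0) were alternatives, with other count minimums, columns and totals. Structures were predicted with RNAfold 2.7.2. Python 3.11.15, scipy 1.17.1 and R 4.3.3 were used, and the test was checked on counts drawn at known folds. Those draws held counting error only, so the check does not cover spread between libraries.

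Genes were named by rule: the members, microRNA genes within 10 kb, the 3 genes of nearest ratio, the 4 of nearest level, and in each list the 3 most abundant and those called at 1.5-fold. Other list genes were named after their values were seen. Members and lists were chosen with earlier results of these data known.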

Additional observations from a re-analysis of the deposited data

How the results depend on the processing

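The direction and the call of Mir451a, Mir144 and Mir486 were the same under all 7 alternatives to their comparison between the libraries. The fold ranged from 1.82 to 1.90 for Mir451a, 1.197 to 1.24 for Mir144 and 1.09 to 1.14 for Mir486. Scaled to all reads of the table, the mean levels were 285, 126 and 10.3 CPM and the share of the 3 genes was 0.0421%. Without the most abundant gene in the total, Mir486 was at 22.8 CPM. From the sense strand alone, Mir144 over Mir486 was 13.3. These 6 values moved by more than 1 SD, by construction of the totals or columns. Leaving out either library gave 408 to 747 CPM for Mir451a, 232 to 278 for Mir144 and 19.9 to 21.8 for Mir486. Mir451a over Mir144 was then 1.76 to 2.68, and the share 0.0660% to 0.105%. Of all detected genes 57 were called higher in replicate 1 and 106 in replicate 2, but 78 in replicate 1 and 75 in replicate 2 under TMM scaling. Size factors from DESeq2 gave 76 and 80. These scalings shift the log2 ratios by up to 0.05. No paired analysis was possible because all samples form a single group. A comparison between libraries has no value with a library left out. Depth limits Mir486 most, with 82 counts in replicate 2.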
